A study of Mus musculus with 6 samples.

Results

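The Bcl-2 family of apoptosis regulators was followed here through 10 of its genes in RNA from C0321 mammary tumors of control mice and of mice given sulindac sulfide (SS). The members were taken by symbol from the deposited count table: Bcl2, Bcl2l1 and Mcl1, which restrain cell death, Bax and Bak1, the effectors, and Bad, Bid, Bbc3, Pmaip1 and Bcl2l11, the BH3-only members, which promote death. All 10 were among the 13730 gene symbols of the table, and 7 of them passed the filter on low counts. No member passed edgeR's test between the groups, and none had an unadjusted p under 0.05. Levels are given as CPM, the usual counts-per-million scale for library size. Bad was at 14.5 CPM with SS against 8.93 CPM in controls, an estimated 1.64-fold difference with an adjusted p of 0.771, and its groups overlapped.

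C0321 is a mouse line of triple-negative breast cancer (TNBC) that arose in a Lunatic Fringe (Lfng) knockout, so the cancer cells of all 6 tumors, treated or not, descend from 1 line with that deletion. Cells of this line had been placed in the mammary fat pad of female FVB mice aged 6 to 10 weeks, the strain in which the line arose. SS, the active metabolite of the anti-inflammatory drug sulindac, inhibits cyclooxygenases and modulates γ-secretase, and it was given by mouth at 60 mg/kg each day for 14 days to 3 mice. The 3 control mice received vehicle, which the series record calls saline, and the sample labels write the drug as a sulfate. The comparison asked which transcripts of the tumor changed under SS. The labels number the tumors from 1 to 3 within each group without naming the mouse, so the p-values measure the spread between these samples.

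The family decides whether the outer mitochondrial membrane stays closed. Bax and Bak1 proteins open pores in that membrane, through which cytochrome c reaches the cytosol and starts the caspase cascade. Bcl-2, Bcl-xL (the protein of Bcl2l1) and Mcl-1 hold them in check, and BH3-only proteins, made or activated under stress, bind the guardians or the effectors and tip the balance towards death. Much of this control acts on the proteins, by phosphorylation, cleavage or degradation, and is not seen in RNA.

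The tumors held between 8468914 and 24441522 estimated counts. On the scaled totals used for CPM, 3 counts correspond to between 0.123 CPM (control tumor 3) and 0.358 CPM (SS tumor 2). Over all 10902 genes tested, 0.0% passed an adjusted p of 0.05 and 6.36% had an unadjusted p under 0.05, and in 12.9% the CPM of the groups did not overlap. The samples were whole tumors. The epithelial keratin Krt8 was at 417 to 544 CPM, whereas Epcam, another epithelial marker, reached no more than 2.98 CPM. Krt18, the keratin that pairs with Krt8, was at 91.8, 98.1 and 80.4 CPM in controls, against 70.0, 59.5 and 61.9 CPM under SS, the 1 tested marker whose groups did not overlap (log2 fold change -0.50 ± 0.12 SE, unadjusted p = 0.00387, adjusted p = 0.760). Of the 6 genes of that list, 2 had a positive and 4 a negative log2 fold change, with Krt8 at -0.10 ± 0.12 (SE). Epcam was at 2.20 ± 1.25 (SE) with overlapping groups, on 12, 2 and 1 counts in controls against 3, 25 and 18 under SS. Of the marker lists, fibroblast genes summed to between 8782 and 18170 CPM, most of it from the collagen gene Col1a1. The study calls C0321 a mesenchymal clone, and which cells made the collagen was not tested. Macrophage genes summed to between 707.7 and 926.1 CPM, and the leukocyte gene Ptprc lay between 41.4 and 64.2 CPM. T cell markers were uneven, with a sum of 47.8 CPM in control tumor 1 and at most 20.8 CPM in the others. In such bulk RNA, fewer cells of a type and less RNA per cell cannot be told apart.

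The members differed far more from each other than the groups did. Per kilobase of transcript, Mcl1 led with a mean of 61.2 CPM per kb over the 6 tumors and a range of 55.6 to 68.8, which placed it at percentile 93.6 of the 13545 genes with a known length. Bcl2l1 followed at 29.2 CPM per kb, with a range of 24.4 to 35.8 that touched neither neighbour in the order. Bax (15.7), Bcl2 (10.96) and Bad (10.6 CPM per kb) came next, and the ranges of these 3 over the tumors overlapped. Bcl2 would be lower with the longer GENCODE form of its short transcript (2841 in place of 2127 bases), so no order is read among the 3. The median of all genes, 2.70 CPM per kb, lay above the mean of Bbc3 (1.89) and of Bcl2l11 (0.968 CPM per kb). Bak1 (0.168), Bid (0.0721) and Pmaip1 (0.0405 CPM per kb) stood at percentiles 13.0, 4.98 and 1.81, with overlapping ranges. Per kilobase, the most abundant guardian of these tumors was thus Mcl1, and Bax stood far above Bak1 among the effectors.

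**Figure D1:**
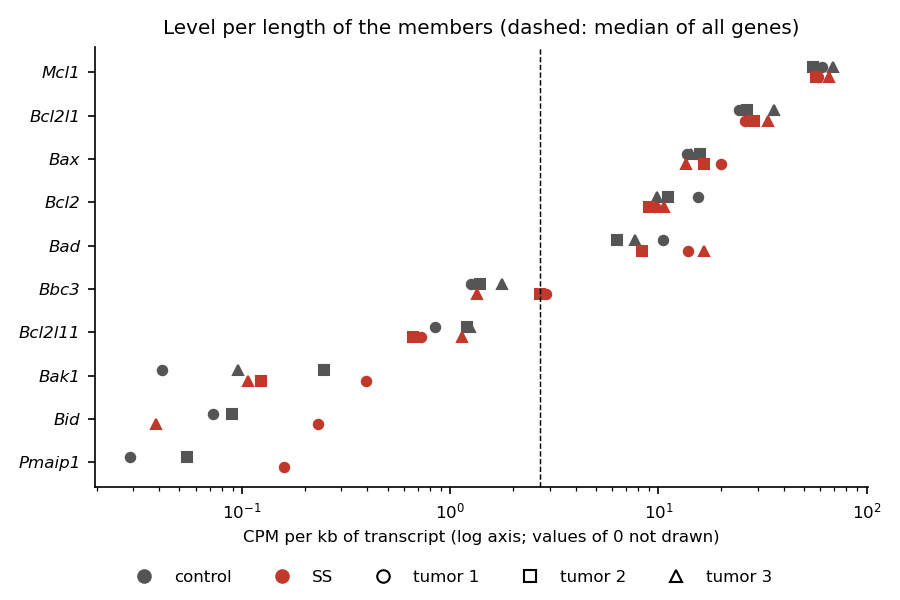
CPM per kb of transcript for each member (rows, ordered by mean) on a log axis. Each symbol is 1 tumor, grey for control and red for SS, and the dashed line is the median of all genes, 2.70 CPM per kb. Mcl1 lies between 55.6 and 68.8 in every tumor, and Bak1, Bid and Pmaip1 lie below 0.40.

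Among the antiapoptotic members, none passed the test. Bcl2 (chromosome 1, 106538176 to 106714290, GRCm38), the founding guardian of the family, was at 41.0, 29.3 and 26.5 CPM in control tumors 1, 2 and 3, and the SS tumors, in the same order, gave 27.8, 24.8 and 29.0 CPM. The groups overlapped, and control tumor 1 stood above the other 5. The means were 32.3 ± 7.72 CPM in controls and 27.2 ± 2.16 CPM with SS (SD, n = 3), with a log2 fold change of -0.24 (95% interval -0.69 to 0.20, adjusted p = 0.878). Without control tumor 1, the log2 fold change was -0.036. That tumor also had the highest sums of T cell markers (47.8 CPM), of adipocyte markers (46.3 CPM, against 0.0410 to 19.2 in the others) and of B and plasma cell markers (5.30 CPM, against 0.0410 to 2.20). Of those lists, 2 of 5, 5 of 5 and 2 of 5 genes were in the table. Most of the sums came from Cd3e (45.9 CPM), Plin1 (37.8 CPM) and Jchain (4.35 CPM), respectively. Of the adipocyte genes, Plin1, Fabp4 and Lep were highest in control tumor 1, and Adipoq and Cidec in SS tumor 2. Control tumor 1 was the highest as well in Ptprc (64.2 CPM), in neutrophil markers (4.82 CPM, against 1.03 to 2.63, 3 of 5 genes) and in epithelial markers (702.4 CPM, against 493.3 to 661.1, 6 of 6 genes). Genes within these lists differed. Of the neutrophil sum, 4.43 CPM was Cxcr2 and 0.395 CPM S100a9, each highest in control tumor 1, where Csf3r had 0 counts. Among epithelial genes, Krt5 (73.1 CPM) and Krt14 (45.9 CPM) were highest in control tumor 1. Krt8 and Krt18 were highest in control tumor 2, and Epcam and Cdh1 in SS tumor 2. The part of these lists in the level of Bcl2 was not tested.

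Bcl2l1 (chromosome 2, 152758732 to 152833803) encodes Bcl-xL, a long-lived guardian of the mitochondrial membrane. It was at 60.2, 65.4 and 88.0 CPM in controls and, under SS, 64.5, 70.6 and 82.7 CPM. The SS tumors lay inside the range of the controls. The log2 fold change was 0.03 (95% interval -0.37 to 0.42, adjusted p = 0.982), and its sign turned when control tumor 1 (-0.08), control tumor 2 (-0.03) or SS tumor 3 (-0.08) was left out.

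Mcl1 (chromosome 3, 95656944 to 95663179), a guardian whose protein turns over quickly, was at 209.0, 189.9 and 235.3 CPM in controls, while SS tumors gave 199.6, 195.2 and 225.7 CPM. Here too the SS tumors lay within the control range. The means of 211.4 ± 22.8 and 206.8 ± 16.5 CPM (SD, n = 3) gave a log2 fold change of -0.03 (95% interval -0.30 to 0.23, adjusted p = 0.969), the narrowest interval of the tested members. The sign of so small a value turned without control tumor 3 (0.05) or SS tumor 2 (0.01).

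The effectors differed widely in level. Bax (chromosome 7, 45461695 to 45466903) was at 11.9, 13.8 and 12.5 CPM in controls and, under SS, 17.4, 14.3 and 11.8 CPM. The lowest and the highest of the 6 were both SS tumors. The log2 fold change was 0.19 (95% interval -0.27 to 0.64, adjusted p = 0.909), and it was 0.03 without SS tumor 1 and 0.31 without SS tumor 3. Bak1 (chromosome 17, 27019812 to 27028627), the other pore-forming effector, had 1, 12 and 6 counts in controls, against 13, 2 and 3 under SS, or 0.0790 to 0.590 CPM against 0.239 to 0.944 CPM. These few counts did not pass the filter, and no difference could be detected at this depth.

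**Figure D2:**
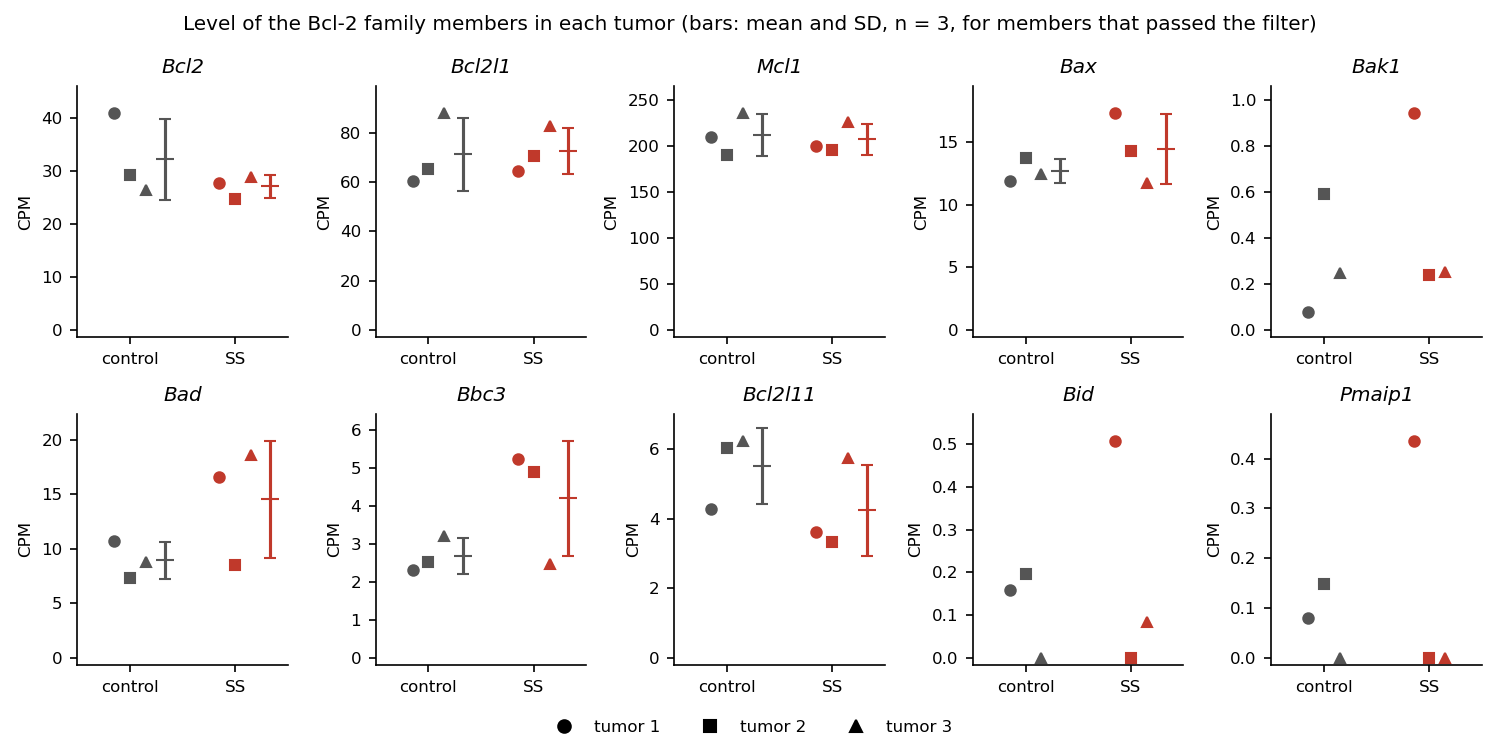
CPM of each of the 10 members in each tumor, 1 panel per gene with its own axis from 0. Circles, squares and triangles are tumors 1, 2 and 3 of each group, and bars give the mean and SD (n = 3) for the 7 members that passed the filter. In every panel the control and SS points overlap, and for Bax, Bak1, Bbc3, Bid and Pmaip1 the highest point is SS tumor 1.

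Of the BH3-only members, Bad had the smallest p. Bad (chromosome 19, 6941861 to 6951905) encodes a sensitizer that binds Bcl-2 and Bcl-xL and is held inactive when survival kinases phosphorylate it. It was at 10.7, 7.32 and 8.78 CPM in controls, while SS tumors gave 16.6, 8.47 and 18.6 CPM. SS tumors 1 and 3 lay above every control, whereas SS tumor 2 lay within the control range. The means were 8.93 ± 1.68 and 14.5 ± 5.36 CPM (SD, n = 3), with a log2 fold change of 0.71 ± 0.31 (SE) and a 95% interval of -0.01 to 1.44. The edgeR quasi-likelihood test gave an unadjusted p of 0.0526 and an adjusted p of 0.771. The unadjusted p moved to the other side of 0.05 with DESeq2 (0.041), with limma-voom (0.046), with the replicate number as a block (0.039, log2 fold change 0.65) and without control tumor 1 (0.0452, log2 fold change 0.86) or SS tumor 2 (0.0039, log2 fold change 0.98). It was higher with the quantile route (0.189), with the most abundant transcript (0.267, log2 fold change 0.50), without SS tumor 3 (0.189, log2 fold change 0.50), without control tumor 2 (0.150) or 3 (0.108) and without SS tumor 1 (0.140). The adjusted p stayed between 0.593 and 0.989 over 16 alternatives. The macrophage marker Adgre1 was likewise higher in SS tumors 1 and 3 (17.0 and 18.2 CPM) than in SS tumor 2 (10.0) and the controls (10.4 to 11.0). Csf1r and C1qa were also highest in SS tumors 1 and 3. Of the same list, Cd68 was highest in control tumor 3 (5.70 CPM), and Mrc1 was at 377.0 CPM in both SS tumor 3 and control tumor 3. All 5 macrophage markers had a positive log2 fold change and none an unadjusted p under 0.05, with sums of 707.7 to 837.9 CPM in controls and 746.7 to 926.1 CPM under SS, and their part in the level of Bad was not tested.

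Bad was counted as a pair of RefSeq transcripts that begin 701 bases apart, and their promoter windows are shown because the tumors differed in which start the counts were assigned to. The windows run from 250 bases before to 50 after each start on the plus strand (RefSeq, GRCm38.p6), and capitals mark matches to the motifs searched on both strands.
Bad upstream start, chr19:6941611-6941910: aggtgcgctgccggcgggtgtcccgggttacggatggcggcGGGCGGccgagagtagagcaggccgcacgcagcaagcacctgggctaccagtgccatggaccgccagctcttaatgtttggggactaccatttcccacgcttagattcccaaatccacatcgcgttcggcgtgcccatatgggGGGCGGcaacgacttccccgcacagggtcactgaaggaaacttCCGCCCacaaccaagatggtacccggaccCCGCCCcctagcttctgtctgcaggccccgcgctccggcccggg
Bad downstream start, chr19:6942312-6942611: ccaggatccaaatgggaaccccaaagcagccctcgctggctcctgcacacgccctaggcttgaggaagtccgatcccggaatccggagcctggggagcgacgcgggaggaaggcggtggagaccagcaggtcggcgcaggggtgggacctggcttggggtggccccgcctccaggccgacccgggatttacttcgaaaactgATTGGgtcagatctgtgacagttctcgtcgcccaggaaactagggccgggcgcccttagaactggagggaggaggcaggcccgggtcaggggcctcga
The upstream window held 4 GC boxes and no match to the other motifs. The downstream window held 1 CCAAT box, read on the other strand, and no GC box. Both were rich in G and C (65.7% and 66.0%, against a median of 52.7% over 32851 promoter windows of the same length) and in CG dinucleotides (27 and 21, against a median of 7). The GC box was searched as GGGCGG, and 35.7% of all windows held it. The letters CCAAT were in 37.4% of windows. A TATA box, searched as TATAAA, and an E-box, searched as CACGTG, were in 13.6% and 7.15%. No matches overlapped in the Bad windows, and neither of the matched motifs was rare.

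The transcript from the upstream start (NM_007522) took 6.53%, 44.7% and 39.8% of the Bad counts in controls, against 53.4%, 7.26% and 37.0% under SS. Control tumor 1 and SS tumor 2 thus had almost all of their Bad counts on the downstream start, and the groups overlapped widely. In CPM, the upstream transcript ranged from 0.696 to 3.50 in controls and from 0.615 to 8.83 with SS (log2 fold change 1.11 ± 0.96 SE, unadjusted p = 0.287). The downstream transcript (NM_001285453) was at 9.97, 4.05 and 5.29 CPM in controls and, under SS, 7.71, 7.85 and 11.7 CPM (log2 fold change 0.50 ± 0.41 SE, unadjusted p = 0.267). Neither form passed the test by itself. The first exon of the upstream transcript lies within Gpr137 on the opposite strand, and whether the counting used strand is not given in the sources used here. Gpr137 was at 3.34 to 5.53 CPM in the 6 tumors, highest in control tumor 1, where the upstream share was lowest, and its part in these shares was not tested.

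Bbc3 (chromosome 7, 16308398 to 16318334) encodes Puma, a BH3-only protein induced by p53 and other stress signals. It was at 2.29, 2.51 and 3.20 CPM in controls, while SS tumors gave 5.23, 4.89 and 2.45 CPM. SS tumors 1 and 2 exceeded every control, and SS tumor 3 lay among the controls, whereas for Bad it was SS tumor 2 that lay among them. The log2 fold change was 0.64 ± 0.40 (SE; 95% interval -0.28 to 1.57, adjusted p = 0.838). Without SS tumor 3 it was 0.92, with an unadjusted p of 0.040 and an adjusted p of 0.805, without SS tumor 1 it was 0.45 (unadjusted p = 0.367) and without SS tumor 2 it was 0.52 (unadjusted p = 0.295).

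Bcl2l11 (chromosome 2, 128126038 to 128162547) encodes Bim, an activator that binds all guardians of the family. It was at 4.27, 6.05 and 6.24 CPM in controls and, under SS, 3.63, 3.34 and 5.75 CPM. SS tumors 1 and 2 lay below every control and SS tumor 3 among them. The log2 fold change was -0.38 ± 0.33 (SE; 95% interval -1.15 to 0.39, adjusted p = 0.890), and it was -0.67 without SS tumor 3 and -0.24 without SS tumor 2.

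Bid (chromosome 6, 120893119 to 120917062), which caspase-8 cleaves to link death receptors to mitochondria, had 2, 4 and 0 counts in controls, against 7, 0 and 1 under SS. Pmaip1 (chromosome 18, 66458604 to 66465558), which encodes Noxa and pairs mainly with Mcl-1, had 1, 3 and 0 counts in controls, against 6, 0 and 0 under SS. Both genes were thus close to the limit of detection, where 0 counts allow up to 0.358 CPM in the shallowest library. In each, SS tumor 1 held the most counts. No fold is given for these genes, since most libraries were at or near the floor of 3 counts.

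**Figure D3:**
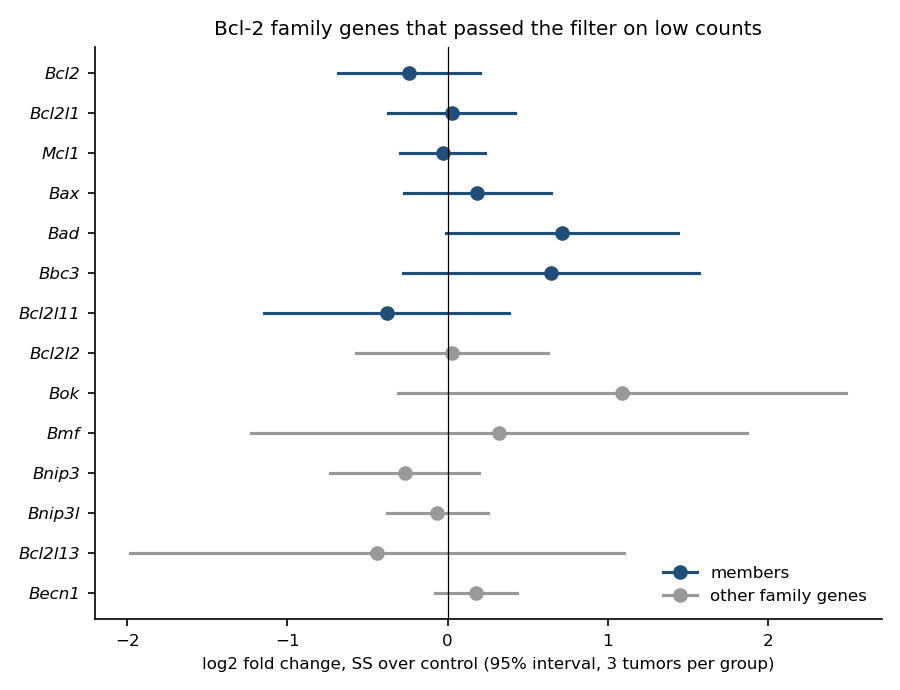
Log2 fold change of SS over control with its 95% interval (edgeR quasi-likelihood fit, 3 tumors per group) for the 7 tested members (blue) and 7 other genes of the family (grey). Every interval crosses 0, and the lower bound of Bad lies nearest to it at -0.01.

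Over the 7 tested members, 4 had a positive and 3 a negative log2 fold change, with a median of 0.03 beside 0.00 over all genes tested. Leaving out single tumors turned the signs of Bcl2l1 and Mcl1. In edgeR 0 had an unadjusted p under 0.05 (1 in DESeq2 and 1 in limma-voom, Bad in both), beside 6.36% of all genes, and in none did the groups separate, beside 12.9% of all genes. By tumor, SS tumor 1 had the highest CPM for 5 of the 10 members (Bax, Bak1, Bid, Bbc3 and Pmaip1), of which Bak1, Bid and Pmaip1 rest on 13, 7 and 6 counts and did not pass the filter. Control tumor 3 was highest for 3 (Bcl2l1, Mcl1 and Bcl2l11), control tumor 1 for Bcl2 and SS tumor 3 for Bad. SS tumor 1 also had the highest sum of macrophage markers, 926.1 CPM against 707.7 to 851.0 CPM in the others, with 5 of 5 genes in the table, and the lowest sum of fibroblast markers, 8782 CPM. The latter was nearly all collagen, Col1a1 at 7057 and Col1a2 at 1719 CPM, beside Pdgfra at 2.98 and Dcn at 2.54 CPM. The part of either list in the members' levels was not tested.

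Because the family acts by binding one another, 4 ratios of effector or activator to guardian were formed within each tumor, as log2 ratios of counts. Bax to Bcl2 was -1.78, -1.09 and -1.09 in controls, against -0.68, -0.79 and -1.30 under SS. SS tumors 1 and 2 had the highest ratios, SS tumor 3 lay inside the control range, and the means differed by 0.39 with SDs of 0.40 and 0.33. This difference was 0.16 without control tumor 1 and 0.58 without SS tumor 3. Bax to Bcl2l1 overlapped except for SS tumor 1, from -2.82 to -2.25 in controls and from -2.82 to -1.89 with SS. Bcl2l11 to Mcl1 ran from -5.61 to -4.98 in controls and from -5.87 to -5.30 with SS, a difference of means of -0.37 with SDs of 0.32 and 0.31. Bak1 to Mcl1, which rests on as little as 1 count of Bak1, ranged from -11.1 to -8.34 and from -9.80 to -7.73. The groups overlapped in all 4 ratios, and with 3 tumors against 3 an exact permutation test cannot go below a p of 0.1.

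**Figure D4:**
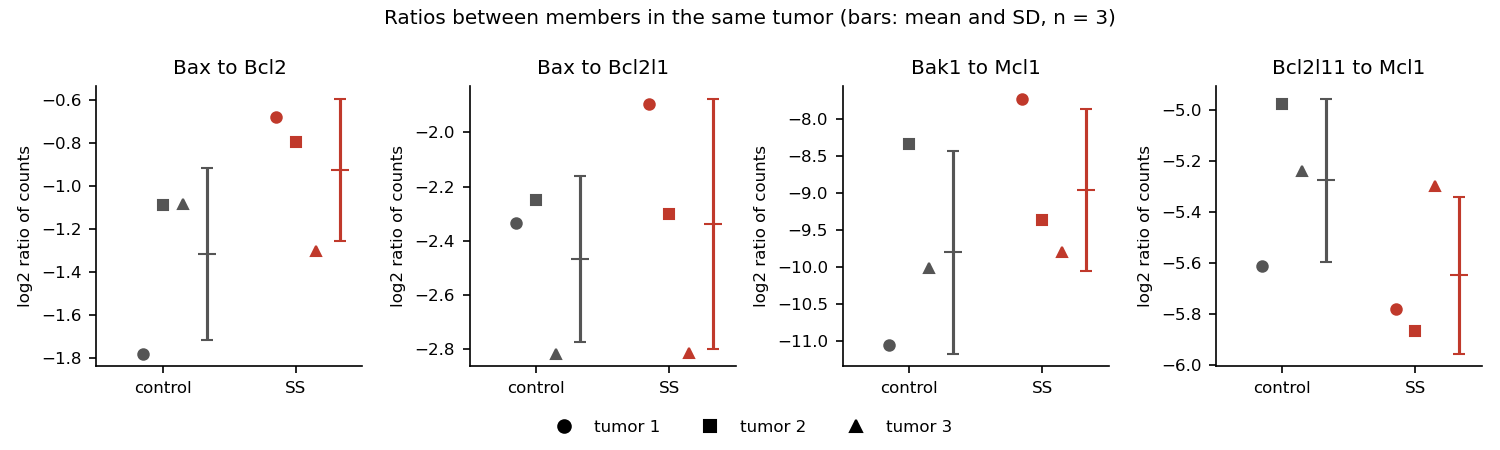
Log2 ratio of counts within a tumor for Bax to Bcl2, Bax to Bcl2l1, Bak1 to Mcl1 and Bcl2l11 to Mcl1, 1 panel each with its own axis. Symbols are tumors 1, 2 and 3, grey for control and red for SS, and bars give the mean and SD (n = 3). In Bax to Bcl2, SS tumors 1 and 2 (-0.68 and -0.79) lie above the controls and SS tumor 3 (-1.30) does not.

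The 10 members were counted over 16 RefSeq transcripts, and 3 members had several. Of these, 13 passed the filter, and none of the 13 had an unadjusted p under 0.05, beside 5.58% of the 15132 transcripts tested. For Bcl2, the long 2-exon transcript (NM_009741) and a short unspliced one (NM_177410) were listed. The short one encodes the β form, which lacks the tail that anchors Bcl-2 in membranes, and only 140 of its 2127 bases lie outside the first exon of the long one, so most of its reads could come from either.

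The short form took 71.9%, 73.0% and 70.8% of the Bcl2 counts in controls, against 62.4%, 67.4% and 69.1% under SS. Its share was lower in every SS tumor than in any control, with means of 71.9 ± 1.10% and 66.3 ± 3.48% (SD, n = 3). Such a separation is not rare, since it was seen in 11.4% of the 3444 genes with several transcripts and enough counts. In CPM the short form was at 29.5, 21.4 and 18.7 in controls, against 17.3, 16.7 and 20.0 under SS (log2 fold change -0.37 ± 0.22 SE, unadjusted p = 0.144, adjusted p = 0.930). The long form was at 11.5, 7.91 and 7.73 CPM against 10.5, 8.09 and 8.96 CPM (log2 fold change 0.02 ± 0.27 SE). Control tumor 1 was the highest for both forms.

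**Figure D5:**
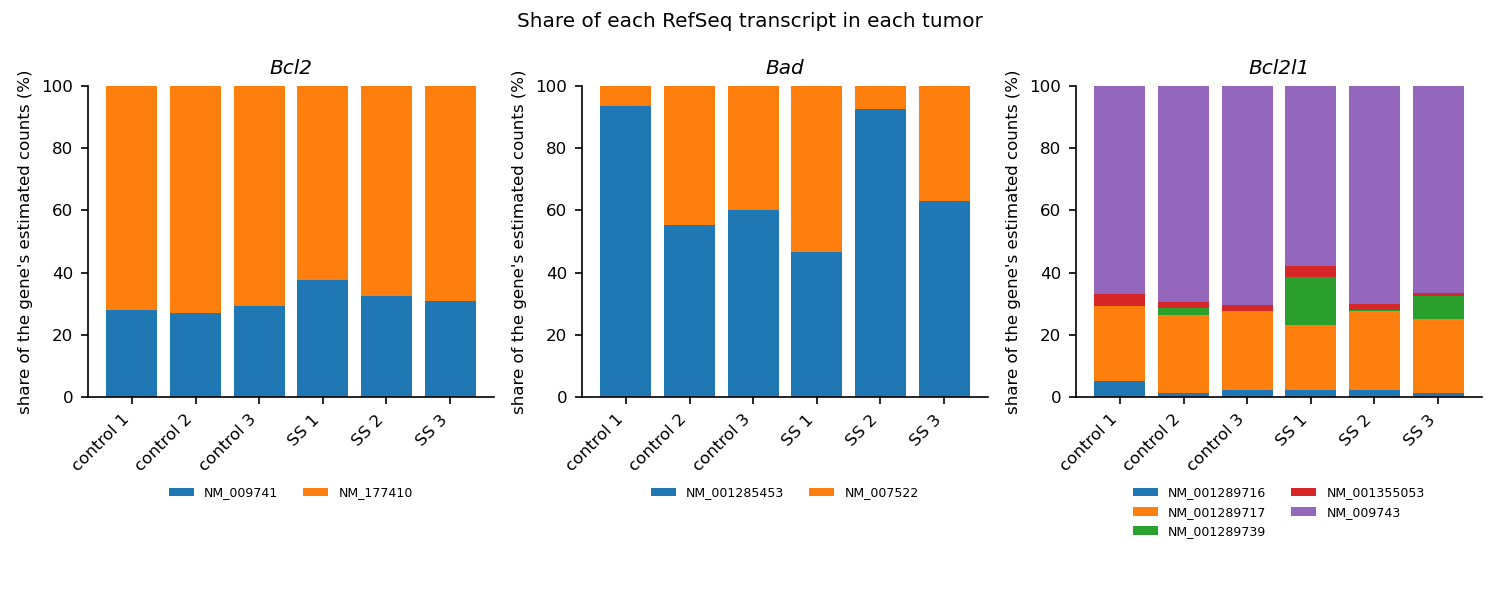
Share of the estimated counts of Bcl2, Bad and Bcl2l1 taken by each RefSeq transcript (colours) in each of the 6 tumors, in percent. The short Bcl2 form NM_177410 lies between 70.8% and 73.0% in controls and between 62.4% and 69.1% with SS, whereas the shares of the Bad transcripts vary from tumor to tumor within both groups.

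Bcl2l1 was spread over 5 transcripts. NM_009743 took between 57.8% and 70.5% of the counts and NM_001289717 between 20.8% and 25.4%. A transcript that ends at 152758732, downstream of the end at 152780664 shared by the other 4 (NM_001289739), took 0.131%, 2.44% and 0.101% in controls, against 15.4%, 0.565% and 7.37% under SS. It was at 9.95 and 6.09 CPM in SS tumors 1 and 3 and at 1.60 CPM or less in the other 4. The groups overlapped, since SS tumor 2 (0.399 CPM) lay below control tumor 2. Control tumors 1 and 3 held only 0.999 and 2.16 estimated counts of it, under the floor of 3, and SS tumor 2 held 3.35, so no fold is given (unadjusted p = 0.0677, adjusted p = 0.886). SS tumors 1 and 3 were also the tumors highest in Bad.

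The genes whose log2 CPM followed Bad most closely over the 6 tumors, among 10901 genes ranked, were Mcrip1 (Pearson r = 0.991), Vps9d1 (0.990), Rbm12b1 (0.986), Tsc22d4 (0.985) and Ift140 (0.983). These values describe 6 libraries that differ in depth, and with so many genes ranked over so few tumors high values arise readily.

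None of the other family genes passed the test either. Of 17 listed, 10 were in the table and 7 were tested, 4 with a positive and 3 with a negative log2 fold change and none with an unadjusted p under 0.05. Bok, an effector-like relative of Bax, had the highest value, 1.09 ± 0.60 (SE, unadjusted p = 0.109), at 0.553, 0.934 and 0.369 CPM in controls, while SS tumors gave 1.45, 1.79 and 0.761 CPM. Only SS tumor 3 lay within the control range, at counts close to the filter. Bmf, a BH3-only gene, was at 0.32 ± 0.67 and Bcl2l2, which encodes the guardian Bcl-w, at 0.03 ± 0.26 on the log2 scale. Bnip3 (-0.27 ± 0.20), Bnip3l (-0.06 ± 0.14) and Bcl2l13 (-0.44 ± 0.66), which act in mitophagy, were on the negative side, and Becn1, an autophagy gene with a BH3 motif, was at 0.18 ± 0.11. Bcl2a1a, Bcl2a1b and Bcl2l14 were too low to test, and the Bcl2a1 genes are near-identical copies whose reads the counting could divide.

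Downstream of the mitochondria, 14 of 19 listed genes were tested, and none had an unadjusted p under 0.05. Of these, 8 had a positive and 6 a negative log2 fold change, with a median of 0.01. Within the lists, the highest and lowest log2 fold changes were those of Cycs, cytochrome c itself (0.32 ± 0.20 SE), and Apaf1, the scaffold of the apoptosome (-0.04 ± 0.16), of Dffa, an inhibitor of the apoptotic nuclease (0.66 ± 0.46), and the caspase Casp6 (-0.23 ± 0.62), of Diablo, an antagonist of caspase inhibitors (0.17 ± 0.36), and the inhibitor Birc2 (-0.09 ± 0.30), and of the channels Vdac3 (-0.02 ± 0.15) and Vdac2 (-0.16 ± 0.11). Endog, a mitochondrial nuclease, was the 1 gene of the 14 whose groups did not overlap, beside 12.9% of all genes, at 9.41, 6.68 and 5.54 CPM in controls and, under SS, 9.58, 9.42 and 11.2 CPM (0.49 ± 0.25 SE, unadjusted p = 0.0920).

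Upstream of the family, 2 of 18 tested genes had an unadjusted p under 0.05, beside 6.36% of all genes, and neither held after adjustment. Tnfrsf1a, a receptor of tumor necrosis factor, was at 11.4, 11.4 and 11.6 CPM in controls, while SS tumors gave 8.49, 5.49 and 7.69 CPM. All 3 SS tumors lay below all controls (log2 fold change -0.66 ± 0.22 SE, unadjusted p = 0.0188, adjusted p = 0.771). Atf4, a transcription factor of the stress response that can induce Bbc3 and Pmaip1, was at 238.2, 210.1 and 300.7 CPM in controls and, under SS, 199.8, 194.9 and 201.7 CPM. It too did not overlap between groups (-0.33 ± 0.14 SE, unadjusted p = 0.0445, adjusted p = 0.771), but its unadjusted p was under 0.05 in only 1 of 6 fits with 1 tumor left out, that without control tumor 2. The groups were also apart for Huwe1, a ubiquitin ligase of Mcl-1 (0.15 ± 0.10), and Gsk3b, a kinase that marks Mcl-1 for degradation (-0.12 ± 0.10), which makes 4 of 18 beside 12.9% of all genes.

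For the other tested upstream genes the unadjusted p was above 0.05. Trp53, which encodes p53, was at 4.35, 3.69 and 2.75 CPM in controls, while SS tumors gave 3.27, 4.17 and 3.89 CPM (0.07 ± 0.33), the highest value among the transcription factors. Tradd was the highest of the death receptor list at 0.00 ± 0.45, and Akt1, which phosphorylates Bad, and Mapk8, which phosphorylates Bim, were the highest (0.19 ± 0.11) and lowest (-0.25 ± 0.17) of the list on turnover and phosphorylation. Over all 39 tested genes of the 3 lists, 17 had a positive and 22 a negative log2 fold change, with a median of -0.01. Of the 39, 2 had an unadjusted p under 0.05 and 5 had groups that did not overlap, close to the 6.36% and 12.9% of all genes.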

How the data were processed

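Stranded libraries of polyadenylated RNA from 3 control and 3 SS tumors were read from both ends at 75 nucleotides. The deposited values were the authors' estimated counts for each RefSeq transcript, with no normalization, in which every transcript sums to at least 10 over the tumors. The submitters' notes name mm10, CASAVA 1.8.1, Bowtie2 2.2.5 and STAR 2.5.3a, and the counting tool is not given in the sources used here. The study's methods name quantile normalization and a t statistic.

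Here, counts were summed by symbol and rounded, and 21 symbols held as dates were restored by accession. edgeR 4.0.16 (R 4.3.3) with TMM factors of 0.981 to 1.03, its low-count filter, Benjamini-Hochberg adjustment and the quasi-likelihood test was fitted to 10902 genes, and separately to transcripts. SEs are those of log2 fold changes. CPM use TMM-scaled totals, and lengths are from GENCODE M21, capped at the deposited span (2127 in place of 2841 bases for NM_177410 of Bcl2). The code was also run on simulated counts, and no result here rests on that run. Intervals of fold changes include the spread between tumors, whereas floors cover counting error only.

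Named genes are all members and, of each list of family and pathway genes, those with an unadjusted p under 0.05 and the highest and lowest; other named genes, among them cell type markers and those whose groups did not overlap, were chosen after their values were seen. Members and lists were chosen with earlier results of these data known. Alternatives were RLE, upper-quartile and total scaling, DESeq2 1.42.0, limma-voom (limma 3.58.1), the quantile route, other filters, the replicate block, each tumor left out and the most abundant transcript.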

Additional observations from a re-analysis of the deposited data

How the results depend on the processing

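The number of members past an adjusted p of 0.05 was 0 in edgeR and in all 15 alternatives that gave a count, DESeq2 and limma-voom included. The number at an unadjusted p under 0.05 was 0 in edgeR and 1 (Bad) with DESeq2, limma-voom and the replicate block. It ranged from 0 to 1 when 1 tumor was left out (Bad without control tumor 1 or SS tumor 2, Bbc3 without SS tumor 3). The number of other family and pathway genes at that level was 2 and ranged from 1 to 3 when 1 tumor was left out. Tnfrsf1a remained in all 6 of these fits, and Atf4 only without control tumor 2. Tnfrsf1a stood alone without control tumor 3, SS tumor 1 or SS tumor 2, and the second gene was Endog without control tumor 1 and Cflar without SS tumor 3. Cflar did not pass the filter with all 6 tumors. SS tumors 1 and 2 (20 and 15 counts) were its highest and SS tumor 3 held 4, so its call without SS tumor 3 is not read as a difference. The cause of these shifts was not tested.

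Signs turned only for values near 0. The log2 fold change of Bcl2l1 was -0.0649 with the most abundant transcript in place of the gene and between -0.08 and 0.21 when 1 tumor was left out, and was negative without control tumor 1, control tumor 2 (-0.0317) or SS tumor 3 (-0.0796). That of Mcl1 was between -0.103 and 0.0547 and positive without control tumor 3 or SS tumor 2 (0.00715). The log2 ratio of Bax to Bcl2l1, SS minus control, lay between -0.0918 and 0.369 and was negative without SS tumor 1 or control tumor 3 (-0.0454). Those of Bax to Bcl2 (0.162 to 0.582) and Bcl2l11 to Mcl1 (-0.55 to -0.223) kept their sign. Bcl2, Bax, Bad, Bbc3 and Bcl2l11 kept their sign in all 16 alternatives.

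Whether the replicate numbers pair mice is not given by the labels. Deviations of tumors with the same number correlated at 0.116, 0.021 and 0.077, and so few values cannot decide it. With the replicate block in edgeR no member passed adjustment, and the unadjusted p of Bad was 0.0389. With at most 13, 7 and 6 counts in any tumor, Bak1, Bid and Pmaip1 could not be compared. Bid and Pmaip1 had 0 counts in control tumor 3 too, the deepest library.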
